A study of Rattus norvegicus with 6 samples.

Results

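The enzymes that hydroxylate collagen inside the cell and cross-link it outside, together with the collagen chaperone Serpinh1, were followed in synovial tissue of the rat ankle. The 10 genes, Lox, Loxl1, Loxl2, Loxl3, Plod1, Plod2, Plod3, P4ha1, P4ha2 and Serpinh1, were taken by name from the array, which gave 14 probes of 41012 that are not controls, or 10 of 35069 names under which probes are listed. All 6 samples came from male rats of 8 weeks with adjuvant arthritis, brought on by daily injection (i.p.) of 0.1 ml Freund's complete adjuvant over 18 days. The saline group (AA, arthritis 1 to 3) received saline and the treated group (TP, triptolide 1 to 3) received triptolide at 0.4 mg/kg, in both cases daily for 14 days. Triptolide is a diterpenoid of the vine Tripterygium wilfordii. No healthy group was analysed here, and the labels do not say that replicates came from separate animals, so that the p-values rest on the scatter among 3 arrays a group, some of which may be technical.

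Collagen chains are modified in the endoplasmic reticulum before they fold. Prolyl 4-hydroxylase, whose catalytic alpha subunits are encoded by P4ha1 and P4ha2, makes the 4-hydroxyproline that keeps the triple helix stable, and the lysyl hydroxylases encoded by Plod1, Plod2 and Plod3 make the hydroxylysine used for sugar attachment and for cross-links. Serpinh1 (HSP47) binds the folded helix and escorts it. Outside the cell the lysyl oxidases, copper-dependent amine oxidases, turn lysine and hydroxylysine of collagen and elastin into aldehydes from which the cross-links form. In the joint they are made by fibroblasts, chondrocytes and osteoblasts.

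The arrays were of 1 colour and read the Cy3 signal of cRNA made from 0.5 ug of total RNA. Levels are log2 intensities relative to the array's own 75th percentile, so 0 is that percentile, and a level can be compared between arrays for the same probe but not between probes. Between 25850 and 28249 of 43379 non-control spots per array were well above background, no spot was saturated, and the number of arrays limits the precision. All 14 probes were well above background on all 6 arrays. Of 10 synovial fibroblast markers all were tested, among them Prg4, a product of the lining, which was at 3.52 in triptolide 2, 4.27 in arthritis 2 and 6.55 to 7.37 on the other arrays. Arthritis 2 stood apart, since the log2 of the summed level of 8 skeletal muscle markers was 11.58 there and 1.45 to 5.45 on the other arrays. Triptolide 2 was high in 5 Schwann cell markers, at 8.00 against 5.81 to 6.54 elsewhere. By their headers, the arthritis arrays shared slide 1, read in scan 1, with triptolide 1, whereas the other triptolide arrays were on slide 2. In such bulk tissue, fewer cells of a type and less RNA per cell cannot be told apart.

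With triptolide the lysyl oxidase genes Lox and Loxl2 had lower values, by 0.46 to 0.58 on the log2 scale, with no overlap between the groups. Loxl1 and Serpinh1 were also lower on average, by about the spread between arrays, while Loxl3 and the 5 hydroxylase genes, by the probe of highest mean signal, had differences from -0.12 to 0.060. The second probes of Plod2 and Plod1 had differences of -0.46 and -0.17, with overlap between the groups. None of this passed the test over all probes. By limma, 0 of the 14 probes had an adjusted p under 0.05, the lowest being 0.994, against 0% of the 25771 tested probes. The Lox pair, 2 probes, had unadjusted p-values under 0.05 with triptolide lower, where 3.23% of all tested probes had such a value in either direction and 1.23% in that direction. Triptolide was lower without overlap for 3 of the 14 probes, which belong to 2 of the 10 genes, against 3.87% of all tested probes, and higher without overlap for 0, against 4.77% (in either direction 8.64%). A difference of -0.3 or lower was found for 3 genes, against 12.7% of all tested probes. Of the 10 genes, each by its probe of highest mean signal, 6 had a difference below 0, against 46.1% of all tested probes, and their median was -0.089, against 0.023 over all tested probes.

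**Figure D1:**
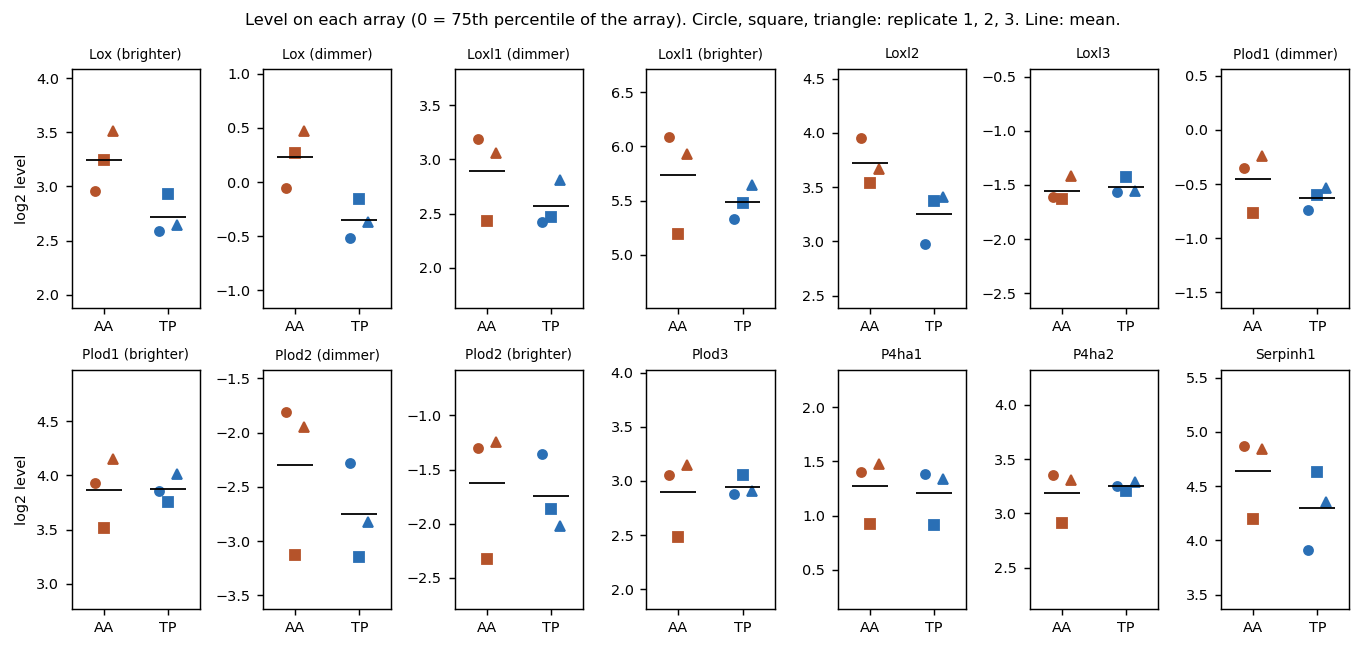
Log2 level of every probe on every array (0 is the array's 75th percentile) for arthritis (AA, brown) and triptolide (TP, blue), with circles, squares and triangles for replicates 1, 2 and 3 and a line at each group's mean. Each panel spans 2.2 log2 units. The 3 triptolide arrays lie below the 3 arthritis arrays for both Lox probes and for Loxl2, and the square of arthritis 2 is the lowest arthritis point in all panels but the Lox pair.

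Lox, the founding lysyl oxidase, is measured by a pair of probes at chr18:47893980-47894039 and chr18:47896751-47896810 (rn4, minus strand). The first probe read 2.96, 3.25 and 3.51 in arthritis 1 to 3 and 2.59, 2.93 and 2.64 in triptolide 1 to 3. The highest triptolide array therefore lay just under the lowest arthritis array, by less than the distance between neighbouring arthritis arrays. The group means were 3.24 ± 0.28 (SD, n = 3) and 2.72 ± 0.18 (SD, n = 3), a log2 difference of -0.52 (SE 0.20, limma unadjusted p = 0.039, adjusted p = 0.994), or 1.43-fold lower.

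The other Lox probe gave -0.053, 0.27 and 0.47 in arthritis and -0.52, -0.16 and -0.37 with triptolide. Its difference was -0.58 (SE 0.20, limma unadjusted p = 0.024, adjusted p = 0.994). The distance between the probes moved by 0.13 over the 6 arrays, so that the array order was nearly the same on each of them. Both read the same extracts and are not independent replicates. Within slide 1, where triptolide 1 is the only treated array, the differences were -0.65 and -0.75, and the fit with slide as a block gave the same values. With 1 array left out the first probe ranged from -0.66 to -0.38. Its limma unadjusted p stayed under 0.05 only without arthritis 1 or triptolide 2. Without arthritis 2 or 3 it was 0.071 or 0.13, and without triptolide 1 or 3 it was 0.11. The limma unadjusted p of the second probe was 0.052 to 0.088 in the same fits. The size of the difference did not depend on arthritis 2, in which Lox stood 0.0085 above the mean of arthritis 1 and 3.

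Loxl2, which oxidises collagen IV of basement membranes as well as fibrillar collagens, was read at chr15:50067990-50068049 (rn4, plus strand). Its levels were 3.95, 3.54 and 3.67 in arthritis and 2.97, 3.38 and 3.41 with triptolide. The groups did not overlap, triptolide 1 was the lowest array and triptolide 2 and 3 lay close below arthritis 2. The means of 3.72 ± 0.21 (SD, n = 3) and 3.25 ± 0.24 (SD, n = 3) differ by -0.46 (SE 0.20, limma unadjusted p = 0.054, adjusted p = 0.994), 1.38-fold lower, with a 95% interval from -0.94 to 0.011. Within slide 1 the difference was -0.74, and with an array left out it ran from -0.56 to -0.32.

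Loxl3, a lysyl oxidase that acts on fibrillar collagen and elastic fibres, was read at chr4:117261373-117261546 (rn4, plus strand), a span longer than the 60 bases of the probe, so that the probe crosses at least 1 intron. The Loxl3 probe and the Loxl2 probe are the most alike of all pairs from different genes here: laid over each other without gaps, 32 of 46 bases are identical (69.6%), while the next pair shares 29 of 57. They are shown because they read similar stretches of related genes while their groups were separate for one gene and overlapping for the other. Capitals mark the bases that are identical in the overlap.
Loxl2: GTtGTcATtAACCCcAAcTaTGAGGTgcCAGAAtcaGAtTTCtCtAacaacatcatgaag
Loxl3: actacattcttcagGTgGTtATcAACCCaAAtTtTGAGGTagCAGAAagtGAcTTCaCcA

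On the Loxl3 probe the levels were -1.61, -1.63 and -1.42 in arthritis and -1.56, -1.42 and -1.56 with triptolide. All 6 arrays lay within 0.21, the narrowest range among the 14 probes. The difference was 0.037 (SE 0.14, limma adjusted p = 0.995), and its 95% interval ran from -0.31 to 0.39, which does not contain the -0.52 and -0.46 measured for Lox and Loxl2. Whether the change of Loxl3 differs from theirs was not tested.

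Loxl1, the lysyl oxidase of elastic fibres, has a brighter probe at chr8:62083171-62083230 and a dimmer one at chr8:62088318-62088377 (rn4, minus strand). The brighter probe read 6.09, 5.20 and 5.93 in arthritis and 5.33, 5.48 and 5.64 with triptolide. Arthritis 1 and 3 were above all triptolide arrays, but arthritis 2 was the lowest of the 6, so the groups overlapped. The difference was -0.26 (SE 0.26, limma adjusted p = 0.994), with a 95% interval from -0.89 to 0.38. The dimmer probe differed by -0.32 (SE 0.25), and the distance between the probes moved by 0.24. Without arthritis 2 the differences were -0.53 and -0.55. Without arthritis 1 they were -0.081 and -0.18, without arthritis 3 -0.16 and -0.24, and within slide 1 -0.40 and -0.47.

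**Figure D2:**
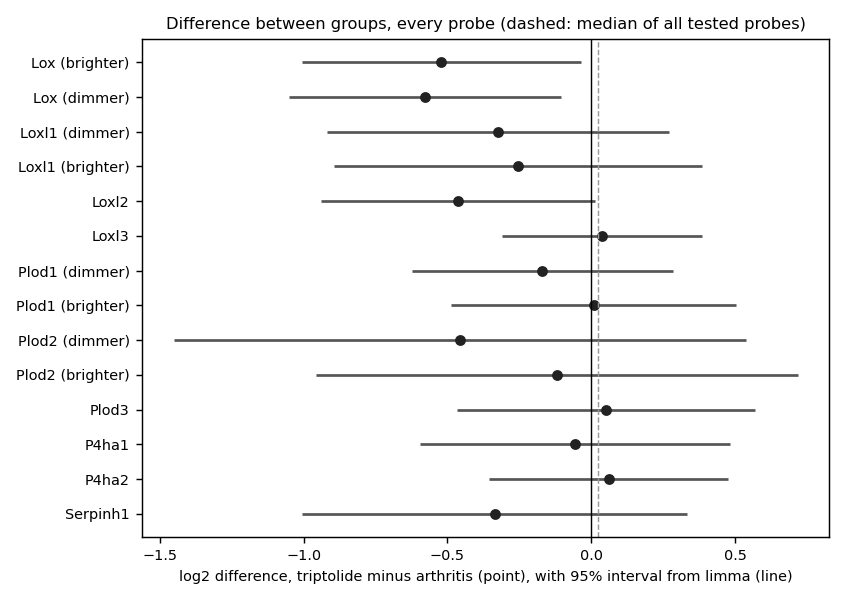
Log2 difference between the group means (triptolide minus arthritis) for each of the 14 probes, with the 95% interval of the limma fit across all probes. Both Lox intervals lie below 0, that of Loxl2 reaches 0.011, and the remaining 11 intervals contain 0.

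The lysyl hydroxylases showed no difference larger than their spread. Plod1, which acts mainly on lysines of the helix, was read at chr5:164987432-164987491 (rn4, minus strand) with levels of 3.93, 3.52 and 4.15 in arthritis and 3.86, 3.76 and 4.01 with triptolide. The triptolide arrays lay inside the arthritis range, and the difference was 0.0079 (SE 0.20), with a 95% interval from -0.49 to 0.50. A second Plod1 probe, whose span of 642 bases at chr5:164994478-164995119 crosses an intron, differed by -0.17 (SE 0.19), also with overlap.

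Plod2, which hydroxylates the telopeptide lysines that give the mature cross-links of stiff tissue, varied most. Its brighter probe, spread over 1575 bases at chr8:97570628-97572202 (rn4, plus strand), read -1.31, -2.32 and -1.25 in arthritis and -1.35, -1.86 and -2.02 with triptolide. Arthritis 2 was lowest, and triptolide 1 stood with arthritis 1 and 3 rather than with the other treated arrays. The difference was -0.12 (SE 0.35), with an interval from -0.96 to 0.72. The second probe, 51678 bases further along the gene at chr8:97622306-97622365, gave -1.81, -3.13 and -1.95 against -2.28, -3.15 and -2.83, a difference of -0.46 (SE 0.41). The distance between these 2 probes ranged from 0.51 to 1.29, wider than for Lox, Loxl1 and Plod1, whose distances moved by 0.13 to 0.31. The SD within groups of the second probe, 0.60, was larger than that of 85.6% of all tested probes. Within slide 1 the Plod2 differences were 0.27 and 0.013. With an array left out, the brighter probe ran from -0.47 without arthritis 2 to 0.070 without arthritis 3, and the second from -0.87 without arthritis 2 to -0.21 without arthritis 1. Array weights gave -0.60 and -0.85 (limma unadjusted p = 0.017 and 0.0041, adjusted p = 0.215 and 0.166). With these weights 4344 of 25771 tested probes had a limma unadjusted p under 0.05, instead of 833. The size of both differences, and the sign for the brighter probe, depended on single arrays. The second probe changed sign only within slide 1 and with slide as a block.

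Plod3, which carries glycosyltransferase activity as well, was read at chr12:20866795-20866854 (rn4, plus strand) with 3.06, 2.49 and 3.15 in arthritis and 2.88, 3.05 and 2.91 with triptolide. The 3 triptolide arrays lay close together inside the arthritis range. The difference was 0.050 (SE 0.21), with an interval from -0.47 to 0.57.

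The prolyl 4-hydroxylase subunits were equally close. P4ha1, whose probe is placed at chrUn:15080990-15084513 (rn4, minus strand), read 1.41, 0.93 and 1.48 in arthritis and 1.38, 0.92 and 1.34 with triptolide. Each group held 1 low array, arthritis 2 and triptolide 2, and the difference was -0.058 (SE 0.22), with an interval from -0.60 to 0.48. P4ha2, read at chr10:39550934-39550993 (rn4, plus strand), was at 3.35, 2.91 and 3.31 in arthritis and 3.26, 3.20 and 3.29 with triptolide. The triptolide arrays lay close together (SD 0.043) inside the arthritis range, and the difference was 0.060 (SE 0.17), with an interval from -0.36 to 0.48. These intervals do not show that the enzymes were unaltered, since each still contains differences of the size seen for Loxl1 and Serpinh1.

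Serpinh1 was read by a probe placed at chr1:156666914-156666946 (rn4, minus strand), which places 33 of its 60 bases. Its levels were 4.87, 4.19 and 4.84 in arthritis and 3.91, 4.63 and 4.36 with triptolide. Arthritis 1 and 3 were the highest arrays and triptolide 1 the lowest, with arthritis 2 between the treated arrays. The difference was -0.34 (SE 0.28, limma adjusted p = 0.994), and its interval, with an upper end of 0.33, held 0. It was -0.73 within slide 1, where triptolide 1 is the only treated array, -0.14 without triptolide 1 and -0.56 without arthritis 2. Without arthritis 1 or arthritis 3 it was -0.22 or -0.23, and without triptolide 2 -0.50.

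Arthritis 2 was the lowest of the 3 arthritis arrays for 9 of the 10 genes, against 58.5% of all tested probes. Relative to the mean of arthritis 1 and 3 it was lower by 1.05 for Plod2, 0.81 for Loxl1, 0.66 for Serpinh1 and 0.62 for Plod3, where the median over all tested probes was -0.19. Lox was the exception. The same array was high in skeletal muscle markers and low in synovial fibroblast markers, of which 10 of 10 were tested. Relative to their own means, the fibroblast markers were at -0.67 there, the T cell markers at -0.86, the Schwann cell markers at -0.67, the adipocyte markers at -0.50 and the macrophage markers at -0.41, so that the low values were not limited to fibroblast markers. The log2 of the summed fibroblast level was 7.92 in arthritis 2 against 8.44 and 9.03 in arthritis 1 and 3. It was 7.87 to 8.52 with triptolide, lowest in triptolide 2. Triptolide 2 was also low in fibroblast markers (-0.46), T cell markers (-0.79) and macrophage markers (-0.57). Its Schwann cell markers (2.55) and adipocyte markers (0.32) were not low. Nor were its smooth muscle markers (2.68), chondrocyte markers (1.84) and endothelial markers (0.99). Such low values were therefore not particular to arthritis 2. Without arthritis 2, all 10 genes had a difference below 0, against 54.3% of all tested probes, and their median was -0.35, against -0.022. In that fit Loxl3, at -0.00013, was hardly below 0, and P4ha2 was at -0.080. Without arthritis 1 or without arthritis 3, 4 genes had a difference below 0, against 41.5% or 42.7% of all tested probes. The median of the 10 genes was then 0.010 or 0.057. With the mean of the muscle markers as a covariate the difference of Lox was -0.52 and the count of genes below 0 was again 6. Centred on their own means, the muscle markers were at -4.08, 8.62 and -4.42 in arthritis 1 to 3. With triptolide they were at 0.79, -3.19 and 2.28. The group averages were nearly equal, so this covariate could hardly move a difference between the groups. The part of these markers in the results was not tested.

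**Figure D3:**
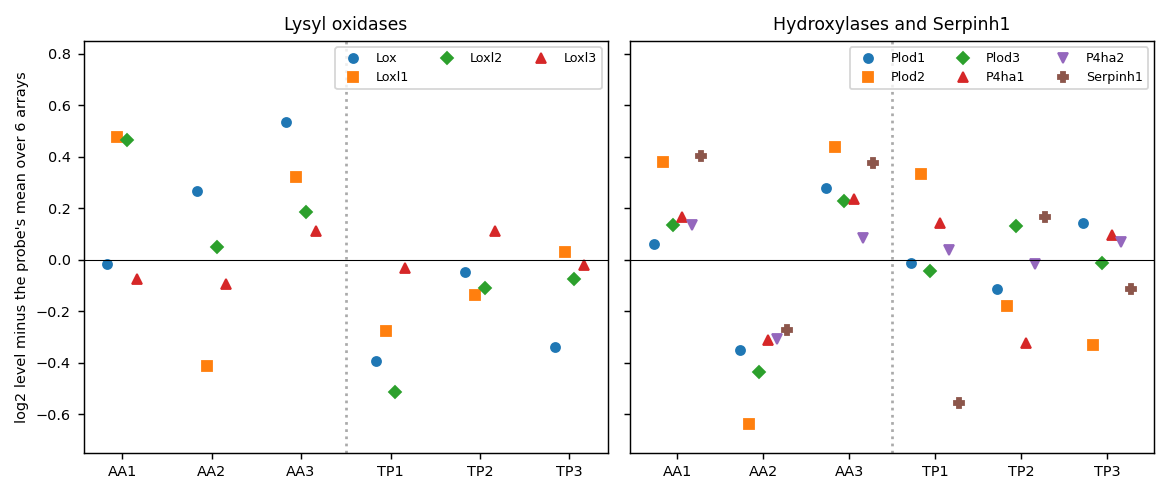
Log2 level minus the probe's own mean over the 6 arrays, for the probe of highest mean signal of each gene, with the lysyl oxidases on the left, the hydroxylases and Serpinh1 on the right, and a dotted line between the arthritis arrays (AA1 to AA3) and the triptolide arrays (TP1 to TP3). In AA2 the hydroxylases, Serpinh1 and Loxl1 lie at -0.28 to -0.64, while Lox lies at 0.27. In TP1 Loxl2, Serpinh1 and Lox lie at -0.39 to -0.56.

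Among the other enzymes and chaperones of collagen processing, 18 of 25 listed genes were tested, and 10 had a difference below 0 (median -0.046), against 46.1% of all tested probes. None passed the adjusted threshold by limma, and 1 of the 18 had an unadjusted p under 0.05, against 3.23% of all tested probes. That gene was Loxl4, the remaining lysyl oxidase, which had higher values with triptolide: -3.57, -3.01 and -3.46 against -4.18, -4.11 and -5.06, or 2.15-fold higher (SE of the log2 difference 0.31, limma unadjusted p = 0.011, adjusted p = 0.994). Its groups did not overlap, as for 4.77% of all tested probes with triptolide higher. Its signal was dim and cleared the background on only 2 arrays with arthritis. P4ha3, the third alpha subunit of prolyl 4-hydroxylase, differed the other way by -0.59 (SE 0.24, limma unadjusted p = 0.050), and it too was dim, above background on 2 triptolide arrays. P4hb, the beta subunit shared by these enzymes, differed by 0.079. Of the scaffold P3h4 and the procollagen C-proteinase enhancer Pcolce the differences were -0.47 and -0.41.

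The substrates of these enzymes had mostly lower values with triptolide. Of 15 tested collagen and elastin genes, 14 had a difference below 0, against 46.1% of all tested probes, and their median was -0.39, below the -0.089 of the 10 enzyme and chaperone genes. None passed the adjusted threshold by limma. The fibrillar collagen gene Col5a2 alone had an unadjusted p under 0.05, with a difference of -0.54 (limma unadjusted p = 0.038). Of all tested probes, 1.23% had such a value with triptolide lower. Triptolide was lower without overlap for 2 of the 15 genes, Col5a2 among them, against 3.87% of all tested probes. Col5a3 differed by -0.74 (SE 0.32), Col12a1 by -0.84 (SE 0.40) and Col11a1 by -1.66 (SE 0.83), each with overlap between the groups. Relative to their own means, the substrates were at 0.37, 0.039 and 0.22 in arthritis 1 to 3 and at -0.39, 0.32 and -0.56 in triptolide 1 to 3. By these averages triptolide 2 stood above arthritis 2 and 3, so the groups overlapped.

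**Figure D4:**
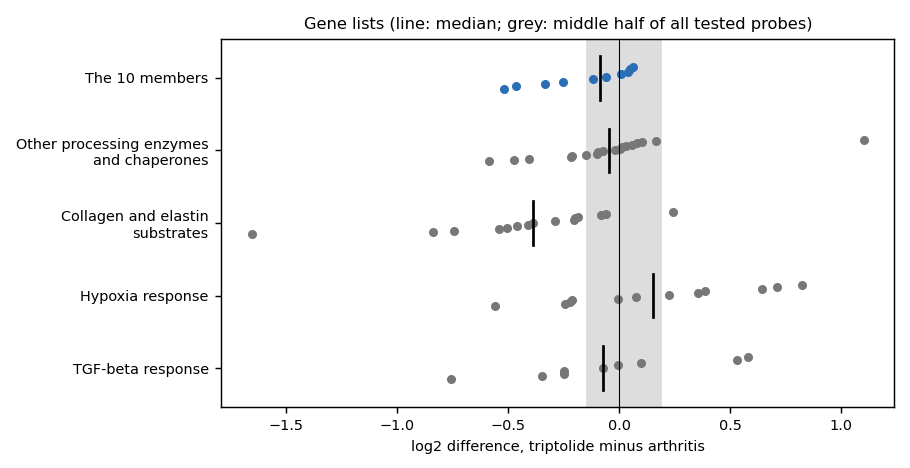
Log2 differences (triptolide minus arthritis) of the 10 genes and of 4 related lists, 1 point per gene, with a line at each median and grey for the middle 50% of all tested probes, from -0.15 to 0.19. The substrates centre on -0.39, the 10 genes on -0.089 and the hypoxia response genes on 0.15.

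Plod2, P4ha1, P4ha2 and Lox are textbook targets of the hypoxia-inducible factors, which bind the letters ACGTG or GCGTG, and Serpinh1 is a textbook target of the heat shock factor, which binds GAA triplets on alternating strands. Promoter sequences were in the RefSeq table (build GRCr8) for 8 of the 10 genes, and the 250 bases before the start were searched on both strands. The hypoxia letters occurred 5 times in P4ha2, 4 times in Plod2, 2 times in P4ha1, 1 time each in Loxl3, Plod1 and Plod3 and 0 times in Loxl1 and Serpinh1. They occurred at least 1 time in 36.7% of all 33469 promoters, with 5 or more in 1.04%. A match is no evidence of binding. The stretches that hold the P4ha2 and Plod2 matches are given with the matches in capitals, at chr10:38743704-38743868 (plus strand) and chr8:101964088-101964207 (plus strand).
P4ha2: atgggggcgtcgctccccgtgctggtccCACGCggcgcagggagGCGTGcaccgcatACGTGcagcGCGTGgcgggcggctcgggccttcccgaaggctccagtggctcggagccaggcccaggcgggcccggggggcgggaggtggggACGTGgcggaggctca
Plod2: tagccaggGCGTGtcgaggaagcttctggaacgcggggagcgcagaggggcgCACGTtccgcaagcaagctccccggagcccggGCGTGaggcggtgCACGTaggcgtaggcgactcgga

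Beside these sequences, 7 of 12 tested hypoxia response genes had a difference above 0 and 5 below 0 (median 0.15), where 46.1% of all tested probes were below 0. Vegfa and Adm, which encode secreted factors that act on vessels, differed by 0.71 and 0.64 (limma unadjusted p = 0.037 and 0.048, adjusted p = 0.994 each), while P4ha1, P4ha2 and Plod2 differed by -0.058, 0.060 and -0.12. The glucose transporter gene Slc2a1 differed by 0.82 and Ero1a by 0.39. The 5 hypoxia genes below 0 were Bnip3 at -0.56, Pgk1 at -0.24, Ldha at -0.22, Egln1 at -0.21 and Pdk1 at -0.0045, and were named after their values were seen. Relative to their own means, the list was at 0.57 and Plod2 at 0.33 in triptolide 1, but in arthritis 2 the list was at 0.24 and Plod2 at -0.64. In arthritis 1 and 3 the list was at -0.30 and -0.19 and Plod2 at 0.38 and 0.44. The list was mixed in arthritis 2, the array high in muscle markers. There Bnip3, Ldha, Pgk1 and Egln1 were highest of the 6 arrays, at 4.44, 4.20, 5.13 and 2.56. Adm, Slc2a1 and Ero1a were lowest there, at 2.02, 3.39 and 1.43. Whether Plod2 responded to hypoxia was not tested. TGF-beta is a known inducer of Lox. Of 9 tested genes of the TGF-beta response, 6 had a difference below 0 (median -0.075), against 46.1% of all tested probes. By limma, 0 of them had an unadjusted p under 0.05, against 3.23% of all tested probes. The matricellular genes Postn and Ccn2 differed by -0.76 and -0.35, and Ltbp2, which encodes a matrix protein of the fibrillin family, by 0.53.

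The heat shock element, searched as 3 such triplets each 2 bases from the next, occurred 1 time each in Serpinh1 and in Plod2 and in 0.663% of all promoters. The Serpinh1 match begins 35 bases before the start. The printed stretch of 100 bases around it lies at chr1:163062997-163063096 (GRCr8, minus strand), with the match in capitals, and is shown because heat shock control is what this chaperone gene is known for.
Serpinh1: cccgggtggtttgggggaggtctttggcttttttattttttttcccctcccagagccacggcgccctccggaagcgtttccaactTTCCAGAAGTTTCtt

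By profile over the 6 arrays, the nearest of 11670 genes to Lox were Scrn2, Epha4 and Rftn2, with root mean square differences of 0.097, 0.0999 and 0.106 between levels each centred on its own mean. Their differences were -0.41, -0.50 and -0.50. Genes picked by profile over the same arrays must have differences near that of the member, so these values are no separate result. Nearest to Loxl2 were Ccdc80, Tada2a and Ndn, at 0.051, 0.082 and 0.089, with differences of -0.40, -0.57 and -0.39, to which the same limit applies. The Ccdc80 levels were 4.83, 4.31 and 4.54 in arthritis and 3.85, 4.33 and 4.30 with triptolide, and its groups overlapped, since triptolide 2 was above arthritis 2.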

How the data were processed

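Values came from the deposited scanner output, in which each spot has a linear intensity. Per the file headers, Agilent Feature Extraction 10.7.3.1 subtracted background and spatial trends within each array, with probe positions on build rn4. The submitters' processing notes name version 9.1. A deposited table of the series holds log2 values for 167 rows, 0 of them member probes, and was not used. Control and outlier-flagged spots were left out, the log2 of each array's 75th percentile was subtracted, and spots of a probe were averaged. A probe was tested if measured on all 6 arrays and flagged by the scanner as clearly above background on 3 or more (25771 of 41012). The test was that of limma 3.58.1, run under R 4.3.3 on the log2 values (Benjamini-Hochberg over all tested probes, threshold 0.05). It was also run on simulated data with equal spread for all probes and planted changes larger than any member difference. That run cannot show how the test performs on differences of the size seen here. Where a gene has several probes, that of highest mean signal stands for it. Names of other genes came from the RefSeq table (18028 probes by accession, 3169 by symbol, 402 by synonym). Named genes were all members, up to 4 of each pathway list by smallest unadjusted p (P4hb and Prg4 were added after their values were seen, and 1 gene the rule names is not reported here), and the 3 nearest profiles of Lox and of the other member of smallest unadjusted p. Members and lists were chosen with earlier results of these data known. Whether a probe lies in a UTR was not analysed here.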

Additional observations from a re-analysis of the deposited data

How the results depend on the processing

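The alternatives covered background correction, scaling, the filter on dim probes, slide, replicate number, array weights, muscle markers and each array left out. Of the 14 probes, 7 had a difference below 0 under every alternative (both of Lox and of Loxl1, the dimmer of Plod1, Loxl2 and Serpinh1), 0 were above 0 throughout, and 0 passed the adjusted threshold under any, with a lowest limma adjusted p of 0.166. Not all alternatives can change a sign. The filters and the replicate block leave each difference as it was, and slide as a block gives the values of slide 1 alone. The muscle covariate could hardly move a difference. The share of all tested probes below 0 under every alternative was not computed. The count of probes past the threshold among all tested was 0, but 1 with array weights and 24 for arthritis 1 and 3 against triptolide 1 and 3, which leaves out 2 arrays. With array weights and in that comparison 10 of the 10 genes were lower, against 6, where 49.8% and 52.1% of all tested probes were. It was 8 with normexp (57.4% of all tested probes) and 8 with normexp and quantile normalization (49.1%). With an array left out the count was 4 to 10 and the median -0.35 to 0.057.

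Other differences changed sign, and the cause was not tested. Loxl3 was at -0.068 with normexp, -0.045 with normexp and quantile normalization, -0.013 once slide entered the fit or slide 1 was used alone, -0.015 with array weights, -0.046 for arrays 1 and 3, and -0.0084 to 0.10 with an array left out. The brighter Plod1 probe was at -0.021, -0.031, -0.010, -0.017 and -0.11 under the same alternatives in that order, and -0.17 to 0.15 with an array left out. Slide gave 0.013 and 0.27 for the dimmer and brighter Plod2 probes, -0.017 for Plod3 and 0.11 for P4ha1. Array weights gave -0.16 for Plod3 and -0.035 for P4ha2, and arrays 1 and 3 gave -0.21 and -0.057. With an array left out the brighter Plod2 probe ran from -0.47 to 0.070, Plod3 from -0.16 to 0.18, P4ha1 from -0.23 to 0.090 and P4ha2 from -0.080 to 0.14.

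Slide 2 held triptolide arrays only, so that slide gives a treated value from 1 array within slide 1. Arrays of the same replicate number did not deviate together (r = -0.16, -0.13 and 0.00079 over probes), so the numbers were not taken as pairs. With the replicate block the differences are the same by construction (median -0.089, 6 genes lower), and 1064 probes instead of 833 had an unadjusted p under 0.05, with 0 past the adjusted threshold. The deposited table could not serve as an alternative, since it held 0 of the 14 probes. With 3 arrays a group, the median SE over all tested probes was 0.23.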
